A study of Saccharomyces cerevisiae with 12 samples.

Results

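RNA polymerase II (Pol II) coverage was described over 32 genes of budding yeast that encode the enzymes making the branched-chain, aromatic and aspartate-family amino acids. The genes were chosen by systematic name from 6650 gene rows: 3 of leucine synthesis, 5 of isoleucine and valine synthesis, 2 branched-chain aminotransferases, 4 of chorismate synthesis, 4 of tryptophan synthesis, 7 of lysine synthesis, 3 of homoserine synthesis, 2 of threonine synthesis and 2 of asparagine synthesis. Each of the 32 genes passed the filter on low values in both assays. Chromatin immunoprecipitation sequencing (ChIP-seq) with 4H8, a monoclonal antibody against the Pol II C-terminal domain, was compared with input DNA in 3 genotypes, with 2 biological replicates of each kind of library per genotype.

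The strains share the w303 background and mating type MAT alpha, with the alleles his3-11,15, ade2-1, ura3-1 and trp1-delta. They also carry a leu2 mutation, whose allele number the labels spell differently for Pcf11-DNL than for the other strains. In every strain, controls included, the chromosomal PCF11 gene is replaced by the TRP1 marker (pcf11-delta::TRP1), and Pcf11 comes from the plasmid pRS325-LEU2. That plasmid carries V5-PCF11-MYC in WT cells, pcf11-13 with no tag listed in Pcf11-13 cells, and V5-pcf11-deltaN-linkMYC in Pcf11-DNL cells. The series text names a Pcf11-dQN mutant in place of Pcf11-DNL, and the names were taken to mean the same strain because the series has 3 genotypes. WT here is therefore a tagged, plasmid-borne allele, and the plasmid and marker supply LEU2 and TRP1, which were not counted among the 32 genes. The treatment label is glucose, and whether the medium held amino acids is not given in the sources used here. Pcf11 is a subunit of cleavage factor IA, which acts in the 3′ end processing of messenger RNA and in transcription termination, and the pcf11-13 allele is known for changes in the domain that binds the Pol II C-terminal domain.

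Yeast makes leucine, isoleucine and valine from pyruvate and threonine through shared mitochondrial enzymes. The aromatic amino acids come from chorismate, and threonine from aspartate by way of homoserine, whereas lysine is made in yeast from 2-oxoglutarate through the aminoadipate pathway. Many of these genes are known targets of Gcn4, the activator of general amino acid control, and individual branches have activators of their own, such as Leu3 and Lys14.

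The files hold mean read coverage per gene, which is already per base of gene, so levels can be set against each other between genes. Coverage was scaled between libraries by the trimmed mean of M values (TMM), and a change is a difference in log2(scaled coverage + 1). Such values are relative to the other genes of a library, so an equal change of Pol II over every gene cannot be seen. Mean coverage per gene ran from 140 to 301 in the Pol II libraries and from 132 to 189 in the input libraries. The SD of log2 coverage over genes was 0.93 in WT replicate 1 and 0.92 in Pcf11-DNL replicate 2, against 1.08 to 1.19 in the other 4 Pol II libraries, so these 2 libraries had a narrower range between low and high genes. PCF11 itself had a scaled Pol II coverage of 161 ± 9.96 for WT, 803 ± 62.5 for Pcf11-13 and 158 ± 0.286 for Pcf11-DNL (SD, n = 2), and the rise in Pcf11-13 passed the test (adjusted p = 2.07e-05, limma). In the input DNA, LEU2, PCF11 and TRP1 were 1.36-fold, 1.47-fold and 1.53-fold higher in Pcf11-13 than in WT (adjusted p = 0.000103, 0.000227 and 9.58e-05, limma), while none of the 3 passed the test in Pcf11-DNL.

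In WT cells 31 of the 32 genes had a Pol II level over input above that of the median gene. The median over the 32 genes was 1.80-fold above the median gene, and 13 of 32 (40.6%) lay above 2-fold, against 869 of 6641 genes (13.1%) in all. ILV5, which encodes the mitochondrial acetohydroxyacid reductoisomerase of isoleucine, leucine and valine synthesis, stood highest at 14.7-fold, rank 30 among 6641 genes. ASN1, an asparagine synthetase, came next at 7.16-fold. These levels are means of log2 ratios over 2 replicates, with an SD of 0.35 for ILV5 and 0.23 for ASN1.

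Below them lay LYS20, a homocitrate synthase, at 3.16-fold (SD 0.39 on the log2 scale), and ARO4, the tyrosine-inhibited entry enzyme of aromatic synthesis, at 3.01-fold (SD 0.22). ILV2, the catalytic subunit of acetolactate synthase, stood at 2.97-fold (SD 0.18). The replicates of these 3 genes overlapped, so their order is not settled. At the low end, LEU1, the isopropylmalate isomerase, was at 0.764-fold (SD 0.11), under the median gene in both WT libraries. LYS1, a saccharopine dehydrogenase, was at 1.13-fold (SD 0.08), and HOM6, the homoserine dehydrogenase, at 1.25-fold (SD 0.08). Of the 31 neighbouring pairs in the order of levels, 25 overlapped between replicates and 6 did not, including the steps from ILV5 to ASN1, from ASN1 to LYS20 and from LYS1 to LEU1.

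**Figure D1:**
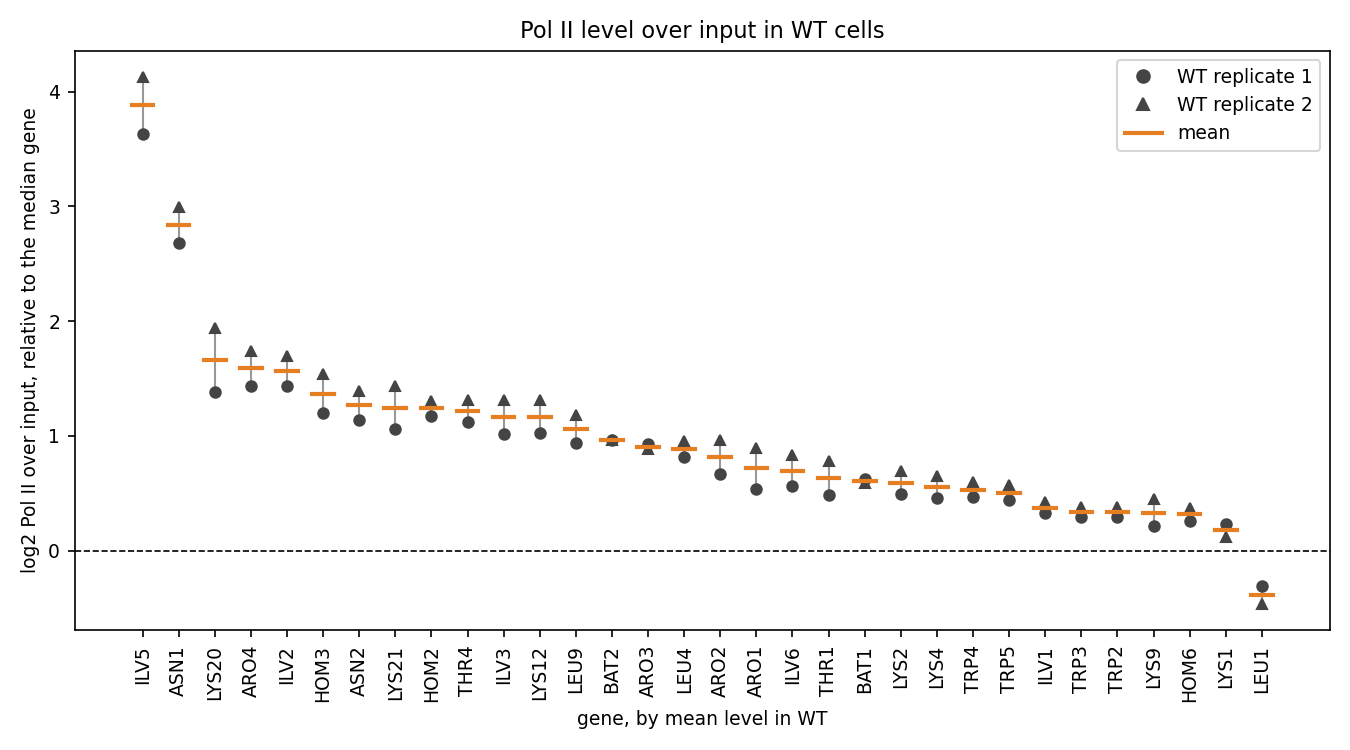
Log2 Pol II over input in WT, relative to the median gene (dashed line at 0), for the 32 genes in order of their mean; circles are WT replicate 1, triangles WT replicate 2, orange bars the mean. ILV5 and ASN1 stand apart at the top, and LEU1 alone lies below the median gene.

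Set against the median gene of its own library, the median of the 32 genes in Pol II coverage was 1.73-fold and 1.96-fold in the WT libraries. It was 2.37-fold and 2.24-fold in the Pcf11-13 libraries, and 1.98-fold and 1.95-fold in the Pcf11-DNL libraries. Both Pcf11-13 libraries thus lay above the other 4, while Pcf11-DNL lay at the level of WT replicate 2. The WT replicates differed: 30 of the 32 genes had more scaled coverage in replicate 2 than in replicate 1, with a median gap of 0.24 on the log2 scale. In the input DNA the same median lay between 0.04 and 0.06 (log2) above the median gene in all 6 libraries.

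Between Pcf11-13 and WT, Pol II coverage of the amino acid synthesis genes leaned upwards, but no gene passed the test. The median change over the 32 genes was 0.19 on the log2 scale, against -0.02 over all 6642 genes tested, and single changes ran from -0.07 to 0.49. The change was above 0 for 28 of 32 genes (87.5%), against 46.0% of all genes. Over all genes the change rose with the WT level of Pol II over input (Pearson r = 0.30). Of the 32 genes, 31 had a level above the median gene in WT. Within the 32 genes r was -0.21, and by ranks -0.06 (Spearman rho). The change and the level share the WT Pol II libraries, so noise in WT alone pushes these values down. The part of level in the lean was not tested. No gene was called higher and none lower at an adjusted p under 0.05 (limma), where 0.979% of all genes were called higher and 0.151% lower. At an unadjusted p under 0.05, 14 of the 32 genes were higher and 0 lower, against 591 and 248 of all 6642 genes.

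In 20 of the 32 genes (62.5%) both Pcf11-13 libraries lay above both WT libraries, against 19.6% of all genes, and in none did both lie below, against 20.5%. With 2 libraries against 2, an exact permutation test of a gene cannot go below p = 0.333, so the calls rest on the spread shared between genes. The 95% interval of a single gene had a median half-width of 0.24 (log2) over the 32 genes, which is more than the median change. It is not an interval for that median. The calls depended on the WT libraries: leaving out WT replicate 2 called 16 of the 32 genes higher (10.7% of all genes), leaving out WT replicate 1 called 4 (4.67%), and leaving out either Pcf11-13 library called 0. Scaling on library totals called 11 (3.78%) and quantile normalization 5 (3.21%). With quantile normalization the median change over the 32 genes was lower, at 0.13, with 23 of 32 above 0. Leaving out both libraries of narrow range gave a median of 0.12, with 22 of 32 above 0.

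**Figure D2:**
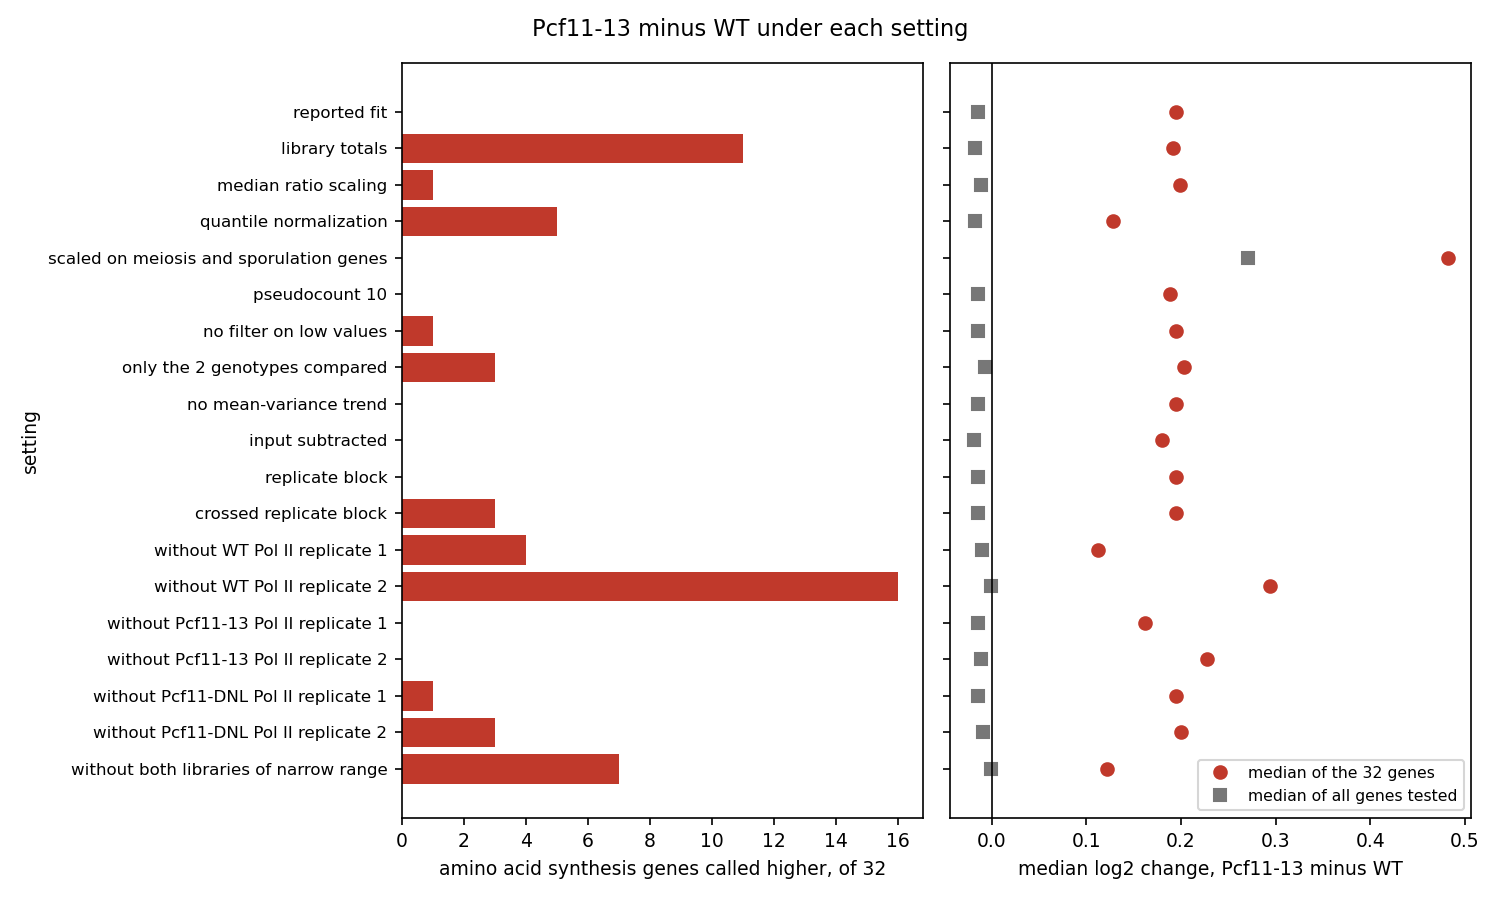
Pcf11-13 minus WT under the reported fit and 18 alternatives. Left, number of the 32 genes called higher (adjusted p under 0.05, limma), from 0 to 16; right, median log2 change of the 32 genes (red circles) and of all genes tested (grey squares). The red median lies to the right of the grey in each setting shown.

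The leucine genes had a median change of 0.27 in Pcf11-13, and in all 3 the Pcf11-13 libraries lay above the WT libraries. LEU4 (YNL104C, chromosome XIV, 424895 to 426754, minus strand) encodes the main isopropylmalate synthase, which commits carbon to leucine. Its scaled Pol II coverage was 216 and 242 in the WT libraries, 314 and 299 in those of Pcf11-13 and 260 and 244 in those of Pcf11-DNL. The Pcf11-13 libraries were the highest and the Pcf11-DNL libraries lay just above WT. The change was 0.42 ± 0.09 (SE) in Pcf11-13 (adjusted p = 0.0809, limma) and 0.14 ± 0.09 in Pcf11-DNL (adjusted p = 1.00).

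LEU9, the second isopropylmalate synthase, had 221 and 267 in WT, against 295 and 294 in Pcf11-13, with 277 and 245 in Pcf11-DNL. Here a Pcf11-DNL library lay within the span of WT and the other just above it. LEU1 had 107 and 97.9 for WT, 110 and 112 for Pcf11-13 and 103 and 111 for Pcf11-DNL, a spread of about the size of the WT gap, and over input it overlapped between WT and Pcf11-13. LEU2, the remaining enzyme of this branch and present on the plasmid in all strains, had a Pol II change of -0.08 in Pcf11-13 and 0.10 in Pcf11-DNL, neither past the test.

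The 5 isoleucine and valine genes had a median change of 0.19 in Pcf11-13, and in 3 of them the groups did not overlap. ILV6, the regulatory subunit of acetolactate synthase, had 207 and 263 in the WT libraries, 314 and 279 in those of Pcf11-13 and 249 and 238 in those of Pcf11-DNL. Its change was 0.34 ± 0.12 (SE, log2) in Pcf11-13 (adjusted p = 0.282, limma). ILV2, its catalytic partner, had 335 and 398 in WT, against 426 and 407 in Pcf11-13, with 398 and 357 in Pcf11-DNL. In scaled coverage the Pcf11-13 libraries were the highest 2 for both subunits. Over input this did not hold for ILV2, where both Pcf11-13 libraries (1.63 and 1.67, log2) lay within the WT span (1.44 to 1.70).

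ILV5, the gene with the most Pol II of the 32, had 1379 and 1896 for WT, 1760 and 1652 for Pcf11-13 and 1684 and 1371 for Pcf11-DNL. The WT libraries spanned both Pcf11-13 libraries, and the change was 0.08 ± 0.32 (SE, log2). ILV3, the dihydroxyacid dehydratase, had 265 and 348 in the WT libraries, 365 and 344 in those of Pcf11-13 and 324 and 297 in those of Pcf11-DNL. ILV1, the threonine deaminase that opens isoleucine synthesis, had 172 and 189 in WT, against 202 and 199 in Pcf11-13, with 192 and 183 in Pcf11-DNL. Thus in scaled coverage ILV3 and ILV5 overlapped WT in Pcf11-13, while ILV1 did not.

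The aminotransferases carry out the last step of all 3 branched-chain pathways, BAT1 in mitochondria and BAT2 in the cytosol. BAT1 had 180 and 181 for WT, 220 and 224 for Pcf11-13 and 209 and 204 for Pcf11-DNL. Its WT replicates were almost equal, and the libraries of both mutants lay above them. The change was 0.30 ± 0.07 (SE, log2) in Pcf11-13 (adjusted p = 0.104, limma) and 0.19 ± 0.07 in Pcf11-DNL (adjusted p = 1.00). BAT2 had 226 and 239 in the WT libraries, 266 and 260 in those of Pcf11-13 and 240 and 248 in those of Pcf11-DNL, in the same order with smaller gaps.

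**Figure D3:**
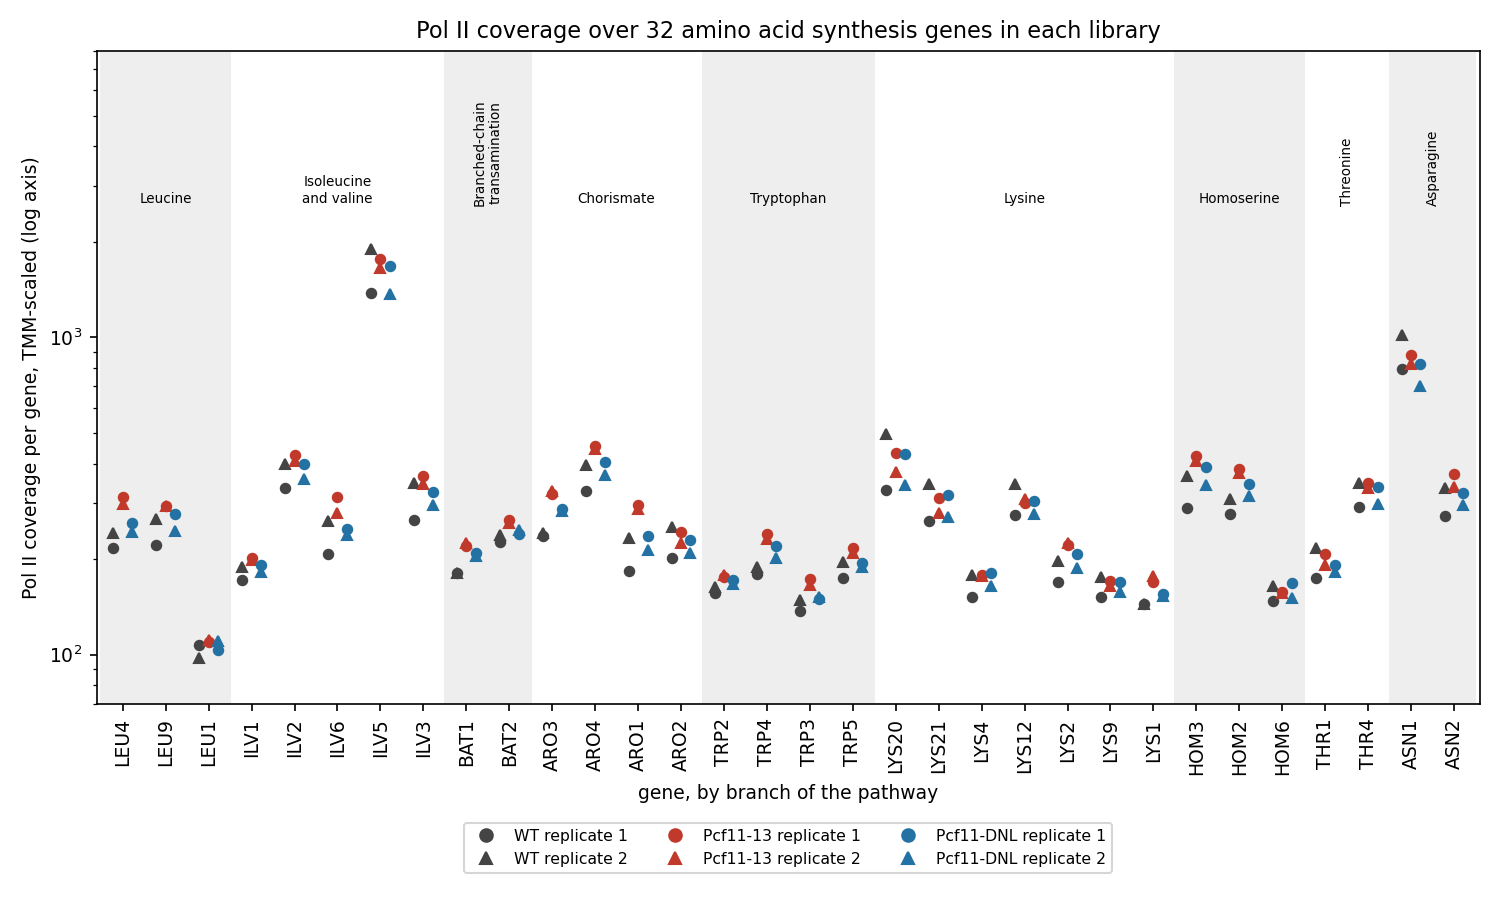
TMM-scaled Pol II coverage (log axis) of each of the 32 genes, grouped by branch; grey, red and blue mark WT, Pcf11-13 and Pcf11-DNL, circles replicate 1 and triangles replicate 2. In 20 genes both red points lie above both grey points, and the grey points of ILV5, ASN1 and LYS20 lie far apart.

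The chorismate genes had the highest median change of the branches in Pcf11-13, 0.38 on the log2 scale, with 3 of 4 genes free of overlap. ARO1 (YDR127W, chromosome IV, 704484 to 709250, plus strand), a gene of 4767 bp, encodes the large arom protein that joins several steps of the shikimate pathway in a polypeptide. Its scaled coverage was 184 and 233 in WT, against 296 and 287 in Pcf11-13, with 237 and 214 in Pcf11-DNL. Both Pcf11-13 libraries lay well above WT, and Pcf11-DNL overlapped WT. The change of 0.49 ± 0.12 (SE) in Pcf11-13 was the highest of the 32 genes, above that of 98.3% of all genes (adjusted p = 0.0947, limma).

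ARO3 (YDR035W, chromosome IV, 521816 to 522928, plus strand), the phenylalanine-inhibited entry enzyme, came closest to the threshold. It had 237 and 242 for WT, 321 and 327 for Pcf11-13 and 287 and 283 for Pcf11-DNL. The 3 genotypes did not overlap, with WT lowest and Pcf11-13 highest. The change was 0.43 ± 0.08 (SE) in Pcf11-13, a fold of 1.35 with a 95% interval from 1.18 to 1.54 (adjusted p = 0.0531, limma). In Pcf11-DNL it was 0.25 ± 0.08, the highest of the 32 genes (adjusted p = 1.00). ARO3 and ARO1 were each called higher in Pcf11-13 in 9 of 18 alternatives to the reported fit, LEU4 in 8, TRP4 in 5 and HOM2 in 4.

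ARO4 had 328 and 395 in the WT libraries, 455 and 446 in those of Pcf11-13 and 404 and 369 in those of Pcf11-DNL. ARO2, the chorismate synthase that ends the shared pathway, had 202 and 252 in WT, against 244 and 225 in Pcf11-13, with 229 and 209 in Pcf11-DNL. ARO2 was therefore the member of this branch in which the WT libraries spanned both mutants, with a change of 0.05 ± 0.12 (SE, log2) in Pcf11-13.

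In all 4 tryptophan genes the Pcf11-13 libraries lay above the WT libraries, with a median change of 0.22. TRP4 (YDR354W, chromosome IV, 1184747 to 1185889, plus strand), the anthranilate phosphoribosyltransferase, had 179 and 189 for WT, 239 and 231 for Pcf11-13 and 220 and 202 for Pcf11-DNL. The order was WT, Pcf11-DNL, Pcf11-13 with no overlap. The change was 0.35 ± 0.08 (SE, log2) in Pcf11-13 (adjusted p = 0.0880, limma) and 0.19 ± 0.08 in Pcf11-DNL (adjusted p = 1.00).

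TRP3, which joins a subunit of anthranilate synthase to indole-glycerol-phosphate synthase, had 137 and 149 in the WT libraries, 173 and 166 in those of Pcf11-13 and 149 and 151 in those of Pcf11-DNL. TRP5, the tryptophan synthase, had 174 and 197 in WT, against 216 and 209 in Pcf11-13, with 194 and 188 in Pcf11-DNL. TRP2, the other subunit of anthranilate synthase, had 156 and 164 for WT, 176 and 178 for Pcf11-13 and 171 and 167 for Pcf11-DNL. The changes of these 3 genes in Pcf11-13 lay between 0.15 and 0.25. TRP1, the marker present in all strains, had a Pol II change of 0.24 in Pcf11-13 (adjusted p = 0.480, limma), beside its input change of 0.62.

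The lysine genes were the branch with the lowest median change in Pcf11-13, 0.03, and only 2 of 7, LYS2 and LYS1, were free of overlap with WT. LYS2, the aminoadipate reductase, had 169 and 197 in the WT libraries, 222 and 225 in those of Pcf11-13 and 208 and 188 in those of Pcf11-DNL. LYS1 had 145 and 144 in WT, against 170 and 177 in Pcf11-13, with 155 and 153 in Pcf11-DNL. Their changes in Pcf11-13 were 0.29 ± 0.10 and 0.26 ± 0.07 (SE, log2), with adjusted p = 0.243 and 0.129 (limma).

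LYS20, a homocitrate synthase at the head of the pathway, had 330 and 494 for WT, 432 and 376 for Pcf11-13 and 429 and 342 for Pcf11-DNL. LYS21, its isozyme, had 264 and 346 in the WT libraries, 312 and 280 in those of Pcf11-13 and 318 and 271 in those of Pcf11-DNL. LYS12, the homoisocitrate dehydrogenase, had 276 and 345 in WT, against 301 and 309 in Pcf11-13, with 305 and 277 in Pcf11-DNL. In these 3 genes the WT libraries spanned all 4 mutant libraries, and the changes in Pcf11-13 lay between -0.03 and 0.00.

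LYS4, the homoaconitase, had 152 and 178 for WT, 179 and 177 for Pcf11-13 and 180 and 165 for Pcf11-DNL. LYS9, a saccharopine dehydrogenase, had 152 and 175 in the WT libraries, 170 and 164 in those of Pcf11-13 and 169 and 157 in those of Pcf11-DNL. Both genes overlapped between the genotypes, with changes of 0.11 and 0.03 in Pcf11-13. Over the 7 lysine genes, changes in Pcf11-13 ran from -0.03 to 0.29, with SEs of 0.07 to 0.20.

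In the aspartate branch, the genes for the first steps had higher values in Pcf11-13. HOM3, the aspartate kinase, had 290 and 365 in WT, against 422 and 407 in Pcf11-13, with 391 and 342 in Pcf11-DNL. HOM2 (YDR158W, chromosome IV, 770357 to 771454, plus strand), the aspartate semialdehyde dehydrogenase, had 277 and 310 for WT, 385 and 373 for Pcf11-13 and 344 and 317 for Pcf11-DNL. Both were highest in Pcf11-13, with changes of 0.35 ± 0.13 for HOM3 and 0.37 ± 0.10 for HOM2 (SE, log2). Neither passed the test (adjusted p = 0.316 and 0.149, limma).

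HOM6, the next enzyme, had 148 and 164 in the WT libraries, 158 and 156 in those of Pcf11-13 and 168 and 151 in those of Pcf11-DNL. THR1, the homoserine kinase, had 174 and 216 in WT, against 208 and 192 in Pcf11-13, with 192 and 182 in Pcf11-DNL. THR4, the threonine synthase, had 292 and 347 for WT, 346 and 334 for Pcf11-13 and 338 and 298 for Pcf11-DNL. These later steps overlapped between all genotypes, with changes between 0.01 and 0.10 in Pcf11-13.

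The asparagine synthetases differed from each other. ASN1 (YPR145W, chromosome XVI, 822620 to 824338, plus strand) had 793 and 1018 in the WT libraries, 883 and 826 in those of Pcf11-13 and 821 and 704 in those of Pcf11-DNL. ASN2 had 273 and 335 in WT, against 371 and 338 in Pcf11-13, with 324 and 297 in Pcf11-DNL. ASN1 had the lowest change of the 32 genes in both mutants, -0.07 ± 0.20 in Pcf11-13 and -0.24 ± 0.20 in Pcf11-DNL (SE, log2; adjusted p = 0.914 and 1.00, limma), while ASN2 was at 0.23 ± 0.12 in Pcf11-13. ASN1 lies on the same strand 716 bp after SNR45, a small nucleolar RNA gene, and its Pol II was not higher in Pcf11-13 under the reported fit.

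**Figure D4:**
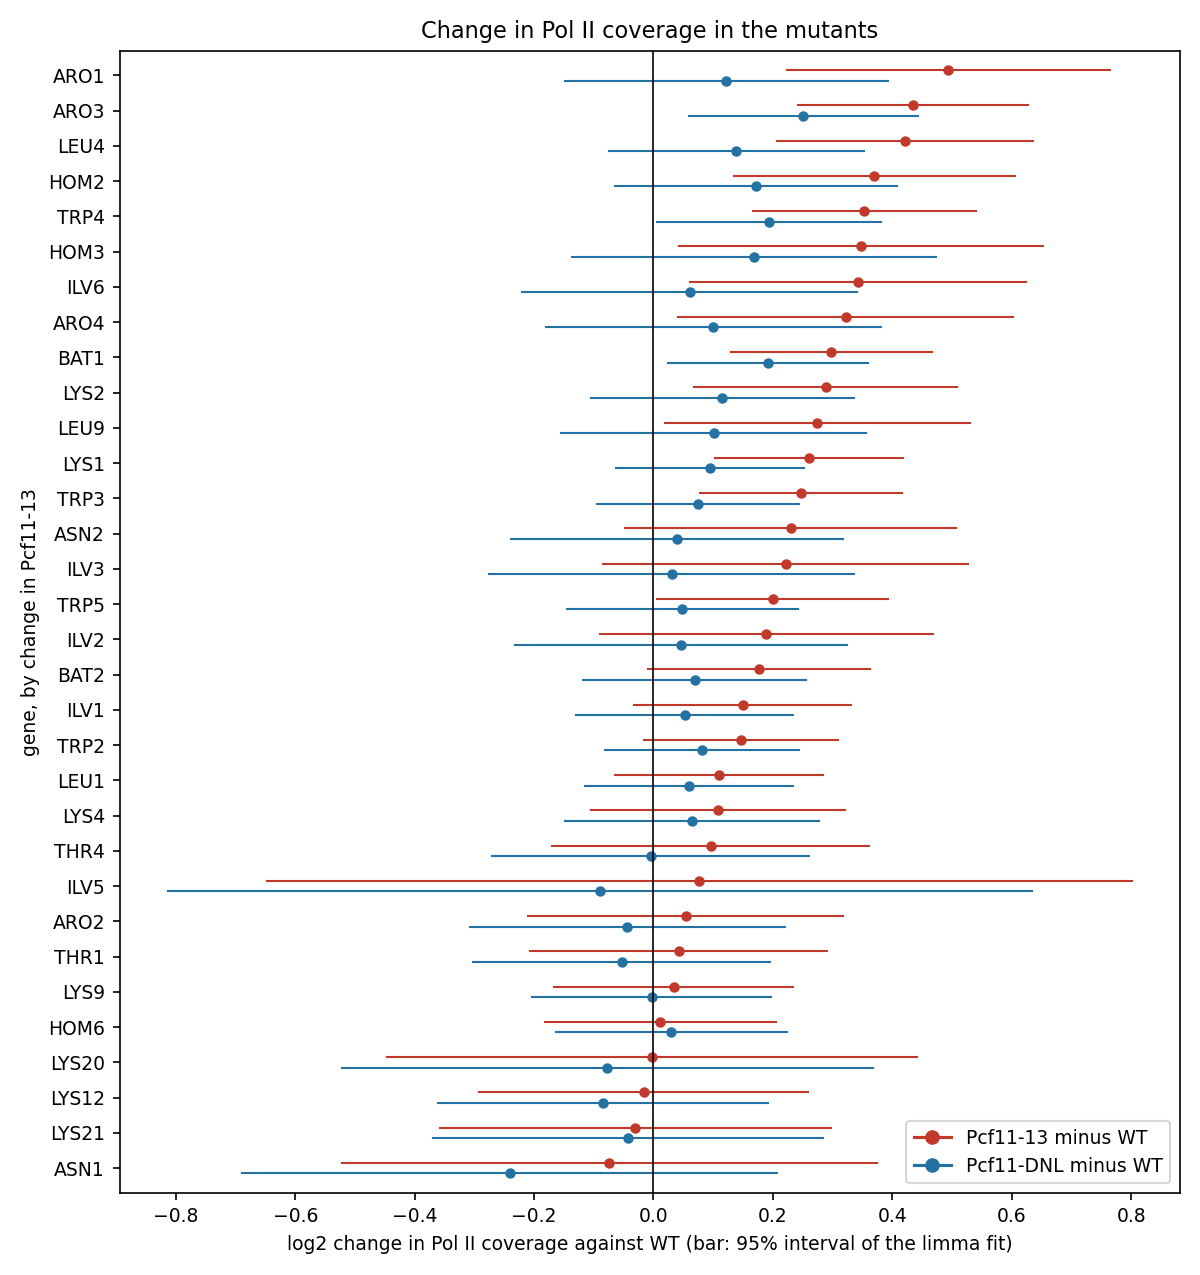
Log2 change in Pol II coverage against WT for each of the 32 genes, ordered by the change in Pcf11-13 (red) with Pcf11-DNL beside it (blue); bars are 95% intervals of the limma fit. Red points run from -0.07 (ASN1) to 0.49 (ARO1), and blue points from -0.24 (ASN1) to 0.25 (ARO3).

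Between Pcf11-DNL and WT the 32 genes had a median change of 0.06, against -0.00 over all genes. Over all genes the change fell with the WT level over input (Pearson r = -0.55). Within the 32 genes r was -0.48, but by ranks it was -0.26 (Spearman rho). The change and the level share the WT Pol II libraries, so noise in WT alone pushes these values below 0. The change was above 0 for 23 of the 32 genes (71.9%), against 49.7% of all genes. None was called higher or lower, where 0.0151% of all genes were called higher and 0% lower, and the lowest adjusted p over the 32 genes was 1.00 (limma). At an unadjusted p under 0.05, 3 of the 32 genes were higher (ARO3, BAT1 and TRP4) and 0 lower, against 81 and 26 of all 6642 genes. Both Pcf11-DNL libraries lay above both WT libraries in 9 of 32 genes (28.1%), against 9.09% of all genes, and in none did both lie below, against 7.6%. The largest positive changes were those of ARO3, TRP4, BAT1, HOM2 (0.17) and HOM3 (0.17), and after ASN1 the lowest were ILV5 (-0.09) and LYS12 (-0.08). The median was 0.16 without WT replicate 2 and -0.04 without WT replicate 1, so its sign rested on that choice of library.

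Both mutants were compared with the same WT libraries, so their changes are not independent. The direct comparison of Pcf11-DNL with Pcf11-13 uses neither WT library for its values. There 31 of 32 genes were lower in Pcf11-DNL, with a median of -0.16 against 0.00 over all genes. Over all genes the change against WT rose with the WT level in Pcf11-13 (Pearson r = 0.30) and fell in Pcf11-DNL (r = -0.55). Most of the 32 genes have a high level, and the part of level in this comparison was not tested. HOM6 alone was above 0, at 0.02, which is 3.1% of the 32 genes, against 51.2% of all genes above 0. The median was -0.10 without Pcf11-DNL replicate 2, with 5 genes above 0, and -0.04 with quantile normalization, with 9 above 0. No gene was called lower, where 0.105% of all genes were, and none higher, where 0.0602% were (limma). At an unadjusted p under 0.05, 5 of the 32 genes were lower and 0 higher, against 506 and 225 of all 6642 genes.

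Both Pcf11-DNL libraries lay below both Pcf11-13 libraries in 21 of 32 genes (65.6%), against 26.7% of all genes, and in none did both lie above, against 29.1%. The lowest values were ARO1 at -0.37 ± 0.12, LEU4 at -0.28 ± 0.09 and ILV6 at -0.28 ± 0.12 (SE, log2), with adjusted p = 0.312, 0.337 and 0.451 (limma). These same 3 genes were called lower when only the libraries of the 2 mutants were fitted, which called 8.19% of all genes lower. At the other end, after HOM6, lay LYS21 (-0.01), LYS9 (-0.04), LYS4 (-0.04) and LEU1 (-0.05).

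Several steps are carried out by isozymes, and the ratio within a library does not depend on the single factor by which TMM scales that library. Quantile normalization, which also changes the range of a library, can alter such a ratio and was not applied to these. How reads that match both copies were counted is not given in the sources used here, so values of a similar pair may share reads. ASN1 over ASN2, in Pol II over input, was 1.54 and 1.61 (log2) for WT, 1.23 and 1.22 for Pcf11-13 and 1.34 and 1.20 for Pcf11-DNL. Both WT libraries lay above the 4 mutant libraries, with mean ratios of 2.97-fold for WT, 2.34-fold for Pcf11-13 and 2.41-fold for Pcf11-DNL.

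LEU4 over LEU9 was -0.12 and -0.22 in the WT libraries, 0.05 and 0.01 in those of Pcf11-13 and -0.18 and -0.07 in those of Pcf11-DNL. Only in the Pcf11-13 libraries was LEU4 at or above LEU9. BAT1 lay below BAT2 in all 6 libraries (-0.37 to -0.25), and the WT libraries were the lowest, at -0.34 and -0.37. ARO4 lay above ARO3 (0.50 to 0.86) and LYS20 above LYS21 (0.28 to 0.51) in all 6, with overlap between the genotypes in both pairs. These ratios were not tested.

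**Figure D5:**
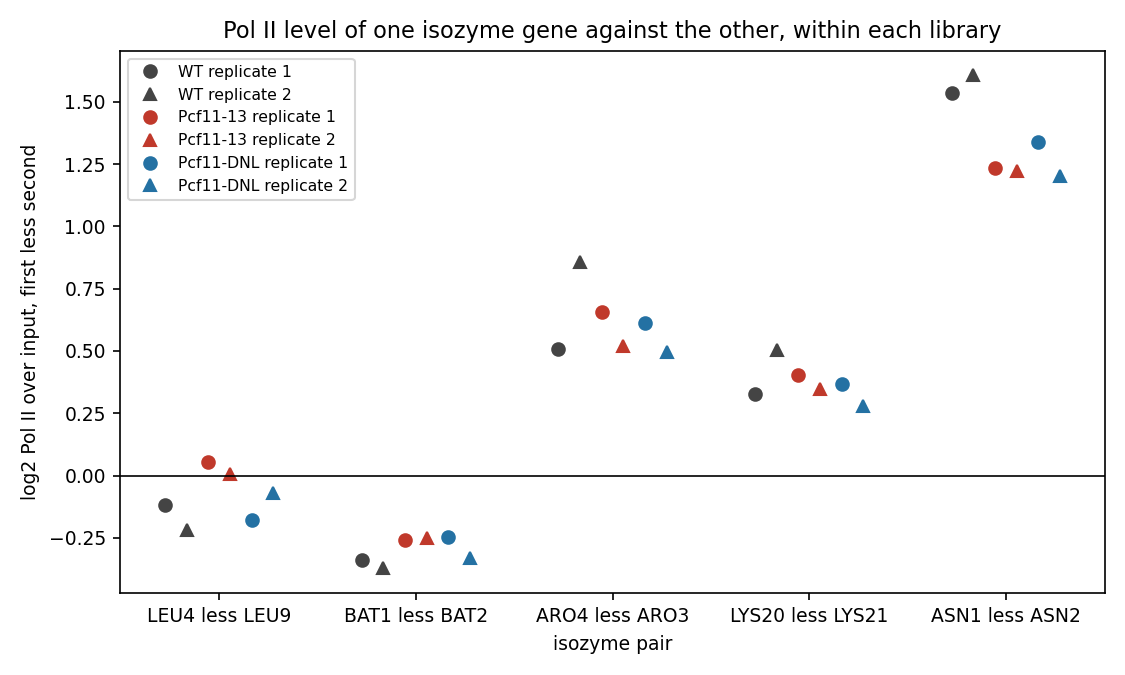
Log2 ratio of Pol II over input between the members of 5 isozyme pairs within each library; colours mark the genotype and symbols the replicate. For ASN1 less ASN2 the WT points (1.54 and 1.61) lie above all mutant points, and for LEU4 less LEU9 the Pcf11-13 points lie above 0 and the others below.

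Other genes of the same pathways and their regulators had median changes near 0 in Pcf11-13, and their difference from the 32 genes was not tested. Among 13 other pathway enzymes, LEU2 and TRP1 included, the median Pol II change in Pcf11-13 was -0.00, with none called, and the highest value was that of ARO8, an aromatic aminotransferase, at 0.30. Among 8 regulators the median was 0.01, with none called. GCN4 is itself controlled mainly at translation. Its scaled Pol II coverage was 1501 ± 383 for WT, 1397 ± 6.77 for Pcf11-13 and 1274 ± 209 for Pcf11-DNL (SD, n = 2). The means of both mutants lay within the SD around the WT mean. LYS14, the activator of lysine genes, was at 0.15 and ARO80, an activator of aromatic amino acid breakdown, at -0.13.

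Among 7 amino acid permeases the median was 0.05 in Pcf11-13, with none called. In 3 of the 7 (42.9%) both Pcf11-13 libraries lay above both WT libraries, against 19.6% of all genes, and in 0 did both lie below, against 20.5%. GNP1 was at 0.43 ± 0.18 and BAP2, which takes up branched-chain amino acids, at 0.39 ± 0.16 (SE, log2; adjusted p = 0.38 and 0.37, limma). AGP1, named after its values were seen, came closest to the threshold at 0.35 ± 0.09 (adjusted p = 0.124, limma), and LYP1, the lysine permease, was lowest at -0.14. In Pcf11-DNL the medians of the 3 lists were -0.01, -0.02 and -0.09 in the same order, with none called, and none was called between the mutants.

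None of the 32 genes overlaps another annotated gene in RefSeq's annotation of the R64 assembly, and the nearest upstream neighbour lies 24 to 1603 bp away. For 21 genes that neighbour is on the same strand, so that it ends towards the gene, and for 11 it is on the other strand. The median Pol II change in Pcf11-13 was 0.22 over the 21 and 0.15 over the 11, and the ranges overlapped (-0.07 to 0.49 and -0.00 to 0.42). A rise of the upstream neighbour that passed the test stood beside 2 of the genes: SWF1, 239 bp upstream of ARO1, rose by 0.72 on the log2 scale (adjusted p = 0.0422, limma), and RGS2, 744 bp upstream of LEU9, by 0.60 (adjusted p = 0.00890). These neighbours were looked at after their values were seen, and their part in the values of ARO1 and LEU9 was not tested. CPP3, 346 bp upstream of ARO3, had a change of -0.39 (adjusted p = 0.804, limma), and MET4, upstream of LEU4 on the other strand, 0.11. Of 28 upstream neighbours with a Pol II value, 17 were above 0 in Pcf11-13 beside a gene of the 32 that was above 0. Most of the 32 genes (87.5%) and 46.0% of all genes were above 0 in any case, and agreement between neighbour and gene was not tested.

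In the input DNA no difference between the genotypes was detected at the 32 genes. Their input changes ran from -0.04 to 0.08 in Pcf11-13 and from -0.05 to 0.03 in Pcf11-DNL, with a median half-width of the 95% interval of 0.06. None was called in any input comparison, where 0.256% of all genes were called between Pcf11-13 and WT, 0% between Pcf11-DNL and WT, and 0.256% between the mutants (limma). At an unadjusted p under 0.05 the only input difference was that of ILV2, which differed by -0.11 between Pcf11-DNL and Pcf11-13 (log2; adjusted p = 0.858, limma). Subtracting the input change left ARO1 at 0.47, LEU4 at 0.44 and ARO3 at 0.40 in Pcf11-13. It took ILV2, the gene with the largest input change, from 0.19 to 0.10 in Pcf11-13 and from -0.14 to -0.03 between the mutants. Of the 20 genes whose Pcf11-13 libraries lay above WT in coverage, 2 overlapped WT over input, ILV2 and LEU1. ILV3 was free of overlap only over input, so that 19 genes lay above WT there. Over input, 9 genes lay above WT in Pcf11-DNL, without TRP2. Between the mutants 22 genes lay lower over input in Pcf11-DNL, without ASN1, ILV2 and TRP2.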

How the data were processed

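The authors deposited a table of mean read coverage per gene (signal) for 6 Pol II and a second for 6 input libraries, not scaled to depth. Per the submitters' processing notes, deepTools 3.1.2, BWA 0.7.17-r1188 and Trimmomatic 0.38 were used with the sacCer3 genome, in roles not given there. The deposited coverage holds no read counts, so no count-based interval could be given. Coverage was scaled by TMM (30% of log ratios and 5% of mean levels trimmed), log2-transformed with a pseudocount of 1, and fitted with limma 3.58.1 (R 4.3.3) with a mean-variance trend over all genes with coverage of at least 10 in 2 libraries. The 6 libraries of an assay shared the estimate of spread. Adjusted p-values (Benjamini-Hochberg) ran over all genes, and a call needed one under 0.05. Procedures were tested on simulated data with noise drawn independently for each gene and library, so shifts shared by the genes of a library were not covered. Of 6650 gene rows, 5976 matched the RefSeq table, all 32 genes included. The 32 genes and the lists were chosen with earlier results of these data known. Genes named in full were the 5 highest and 3 lowest changes per comparison, the 5 highest and 3 lowest WT levels, and isozyme pairs; the remaining members were added for completeness. Alternatives were other scalings, a pseudocount of 10, no filter, fewer libraries and a replicate block.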

Additional observations from a re-analysis of the deposited data

How the results depend on the processing

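In Pcf11-13 against WT, where the reported fit called 0 of the 32 genes higher, 11 were called higher with library totals, 1 with median ratio scaling, 5 with quantile normalization, 1 with no filter on low values, 3 with only the 2 genotypes compared, 3 with a crossed replicate block (added after seeing the data) and 7 without both libraries of narrow range. Leaving out a library gave 0 to 16, with 16 without WT replicate 2, 4 without WT replicate 1, 1 and 3 without Pcf11-DNL replicates 1 and 2, and 0 without either Pcf11-13 library. No alternative called any of the 32 genes lower in Pcf11-13 than in WT, and none called any in Pcf11-DNL against WT. Between the mutants, 1 was called lower with library totals, 3 with only the 2 genotypes and 1 without the narrow libraries, and leaving out a library gave 0 to 3. The cause of these differences was not tested. With a library left out, its group's lone sample was assumed to vary like the others.

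Replicate numbers did not pair the libraries: same-numbered deviations correlated at -0.09, -0.89 and -0.07. In log2 Pol II coverage the WT libraries correlated at 0.9723 with each other, which was less than with some mutant libraries. WT replicate 1 correlated at 0.9944 with Pcf11-DNL replicate 2. WT replicate 2 correlated at 0.9906 with Pcf11-DNL replicate 1 and at 0.9859 and 0.9855 with the Pcf11-13 libraries. The replicate block called 0 of the 32 genes, and over all genes 87 higher and 20 lower in Pcf11-13 against 65 and 10 without it. The crossed pairing called 175 and 31. Over all genes, calls higher ran from 2 to 708 over the alternatives in this comparison.

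When libraries were scaled on 42 genes of meiosis and sporulation, the median over all genes shifted from near 0 to 0.27 in Pcf11-13, -0.10 in Pcf11-DNL and -0.38 between the mutants. The medians of the 32 genes then became 0.48, -0.035 and -0.54, and their distance from all genes stayed at 0.21, 0.06 and -0.16. In the same order, these distances were 0.15, 0.10 and -0.06 with quantile normalization. Without both libraries of narrow range they were 0.12, 0.01 and -0.10. Leaving out a library gave medians of 0.11 to 0.29 in Pcf11-13 and -0.042 to 0.16 in Pcf11-DNL. Between the mutants quantile normalization gave -0.042, and leaving out a library -0.19 to -0.096, the latter without Pcf11-DNL replicate 2.

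Some values near 0 changed sign. With the meiosis scaling ASN1, LYS21 and LYS12 became 0.21, 0.26 and 0.27 in Pcf11-13, and HOM6 -0.36 between the mutants. With input subtracted LYS21 and LYS12 became 0.0065 and 0.00073 in Pcf11-13. With quantile normalization ILV5 became 0.050 in Pcf11-DNL. Between the mutants LYS21, LYS9 and LYS4 became 0.034, 0.0095 and 0.0030 with library totals, 0.13, 0.020 and 0.029 with quantile normalization, and 0.094, 0.0074 and 0.013 without the narrow libraries. Leaving out a library gave, in Pcf11-13, -0.25 to 0.11 for ASN1, -0.22 to 0.16 for LYS21 and -0.18 to 0.14 for LYS12. In Pcf11-DNL it gave -0.32 to 0.14 for ILV5 and -0.25 to 0.076 for LYS12. Between the mutants it gave -0.058 to 0.088 for HOM6, -0.13 to 0.096 for LYS21, -0.090 to 0.0090 for LYS9 and -0.11 to 0.014 for LYS4. With coverage and no counts, depth behind a gene is unknown, and 2 libraries per group leave changes under about 0.24 (log2) within the interval of the median gene of the 32.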
